A study of Mus musculus with 54 samples.

Results

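The 9 genes described here act on procollagen after its chains are made: P4ha1, P4ha2, P4ha3, P4hb, P3h1, Crtap, Serpinh1, Pcolce and Bmp1. They were chosen by gene symbol, with earlier results of these data known, and all 9 were present among the 26264 genes listed for cultured fibroblasts and the 32534, 34652 and 35003 genes listed for the lungs of 3 mouse experiments. Expression was measured by poly(A) RNA sequencing in 54 libraries of 17 groups, in TPM, a length-corrected share of all transcripts in a library that is scaled to a fixed total. The 8 culture groups, with 3 libraries each, were wild-type primary mouse lung fibroblasts taken from the lungs of mice 6 to 8 weeks old and grown in DMEM/F-12 with 10% serum at 5% oxygen. These cells were kept for 24 h in complete medium, in medium without the branched-chain amino acids (BCAAs: leucine, isoleucine and valine), or in BCAA-free medium to which BCAAs or branched-chain keto acids (BCKAs, the first products of BCAA breakdown) had been added back. Each medium was combined with either the PBS vehicle or 20 ng/mL TGF-β1, the growth factor that turns fibroblasts into collagen-producing myofibroblasts, for 48 h.

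The 9 lung groups were whole lungs of male C57BL/6 mice 10 to 12 weeks old, in 3 experiments that each had uninjured mice given PBS, mice given bleomycin into the trachea, and mice given bleomycin and a treatment. Bleomycin is an antibiotic that injures the alveoli and leads to scarring. The water experiment, with 3 mice in each group, used 1.25 mg/kg bleomycin, and its treated mice drank 3 mM BCAAs for 7 days beforehand; the lungs are from day 14. The diet experiment, with 4 mice in each group, used the same 1.25 mg/kg, then 14 days of BCAA-free diet starting on day 7; the lungs are from day 21. The BT2 experiment, with 3 mice in each group, used 3.5 mg/kg. From day 3 its bleomycin mice received 11 daily injections, either 10% DMSO or 20 mg/kg BT2, which blocks the kinase restraining BCKA breakdown, and the lungs are from day 14. The uninjured mice of the BT2 experiment have DMSO in their sample names, while the study's description mentions only a normal diet for them, so bleomycin and the DMSO injections cannot be told apart there if those mice were not injected.

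Prolyl 4-hydroxylase adds hydroxyl groups to prolines of procollagen in the endoplasmic reticulum, and the folded triple helix is unstable at body temperature without them. Its α subunits (P4ha1, P4ha2 and P4ha3) carry the active site, use oxygen, iron and 2-oxoglutarate, and require the β subunit P4hb, which is also the chaperone protein disulfide isomerase. P3h1 and Crtap form a complex that hydroxylates other prolines, Serpinh1 (Hsp47) is a collagen-specific chaperone, Bmp1 cuts the C-terminal propeptide from secreted procollagen, and Pcolce enhances that cut.

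In culture all 7 fibroblast markers had at least 1 TPM in every library with PBS and in complete medium with TGF-β1. With TGF-β1, 5 of 7 did so in BCAA-free medium and 6 of 7 with BCAAs or BCKAs added back. Their sum was 7011 to 28756 TPM, of which the procollagen chain gene Col1a2 made up 5941 and 27859 TPM in those 2 libraries. Summed alveolar type 2 markers did not exceed 0.588 TPM and endothelial markers did not exceed 2.71 TPM. Summed airway markers were 62.4 to 122 TPM, with Scgb3a2 at 0 in all 24 libraries. Scgb1a1 was at 0 throughout every group except BCAA-free medium and added-back BCAAs, both with TGF-β1. Summed mesothelium markers had means of 81.0 TPM with PBS and 35.3 TPM with TGF-β1 in complete medium and 14.5 TPM in BCAA-free medium with TGF-β1, and smooth muscle markers, some of which myofibroblasts also express, had means of 128, 382 and 57.5 TPM. Their part in the members' values was not tested. Read depth is unknown, because only TPM were used. The first library of TGF-β1 in BCAA-free medium stood apart: it had 27677 TPM of Col1a1 against 4495 and 6052 TPM in the other two of its group, and 15.2 TPM of the ribosomal gene Rpl31 against 573 and 352 TPM. In the lungs, the third library of bleomycin with the BCAA-free diet had 17554 genes above 0, against 23171 to 25632 in the other 11 libraries of that experiment. The labels do not say that libraries of a culture group came from separate cultures, so p-values measure only the spread between these libraries, which may be technical.

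TGF-β1 in complete medium raised the 3 α subunits together with Serpinh1 and P3h1, while P4hb and Bmp1 stayed within their spread and Pcolce fell. In limma fits over the 13084 genes tested, with Benjamini-Hochberg adjustment and a threshold of 0.05, 5 of 9 rose and 1 fell. Of all genes tested 12.2% were called higher and 36.4% lower. P4ha1, the most abundant α subunit here, had 398, 409 and 427 TPM with PBS and 976, 1059 and 984 TPM with TGF-β1. P4ha2 had 106, 105 and 112 TPM with PBS and 359.7, 389.6 and 356 TPM with TGF-β1. P4ha3, the least abundant, had 24.4, 25.1 and 22.4 TPM with PBS and 109, 87.5 and 114 TPM with TGF-β1. The groups did not overlap for any α subunit, and the differences on the log2(TPM + 1) scale were 1.29 ± 0.07 (SE, adjusted p = 1.97e-12) for P4ha1, 1.76 ± 0.09 (adjusted p = 5.74e-13) for P4ha2 and 2.06 ± 0.13 (adjusted p = 1.85e-11) for P4ha3.

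Stretches near the starts of the α and β subunit genes are shown because the α subunits moved apart from each other and from P4hb in several comparisons that follow. They are RefSeq reference sequence of build GRCm38.p6, 5′ to 3′ along each gene, upstream of every annotated start except for P4ha2, which has an annotated start further upstream. Capitals mark the letters ACGTG or GCGTG, or their reverse complements, the core that hypoxia-inducible factors can bind. These letters occurred on either strand in 43.8% of all 32851 promoter windows (250 bases before to 50 after a start; 19.6% for ACGTG and 32.4% for GCGTG), so a match is a description and not a site.
P4ha1, chr10:59323046-59323196, plus strand: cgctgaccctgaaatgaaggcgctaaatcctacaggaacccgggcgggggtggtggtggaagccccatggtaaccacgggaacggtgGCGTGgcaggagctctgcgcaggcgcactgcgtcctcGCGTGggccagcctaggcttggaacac
P4ha2, chr11:54100838-54100867, plus strand: catcgcatACGTGcagcGCGTGgcggctcg
P4ha3, chr7:100285270-100285488, plus strand: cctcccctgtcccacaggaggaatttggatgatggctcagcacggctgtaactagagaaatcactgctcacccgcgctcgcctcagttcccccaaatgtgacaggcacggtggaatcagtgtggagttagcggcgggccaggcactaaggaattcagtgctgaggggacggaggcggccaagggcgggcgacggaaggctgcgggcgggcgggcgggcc
P4hb, chr11:120573254-120573503, minus strand: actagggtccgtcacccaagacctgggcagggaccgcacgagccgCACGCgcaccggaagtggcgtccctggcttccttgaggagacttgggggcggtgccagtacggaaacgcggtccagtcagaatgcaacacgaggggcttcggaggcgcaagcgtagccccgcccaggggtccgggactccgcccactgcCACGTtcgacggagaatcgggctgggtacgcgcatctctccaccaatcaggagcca
The whole window held 3 matches for P4ha1, 4 for P4ha2, 0 for P4ha3 and 3 for P4hb. Of the other members, Crtap had 3 matches, each of the 2 windows of P3h1 had 2, and Serpinh1 and Pcolce had 1 each. A window was found for 8 of the 9 genes, all except Bmp1. The letters TGATGNAA, a core bound by ATF4 dimers, were in 0 of the 9 member windows and in 3.97% of all windows.

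P4hb did not follow its partner subunits: it had 1388, 1377 and 1456 TPM with PBS and 1371, 1529.9 and 1361 TPM with TGF-β1 in complete medium, a log2 difference of 0.01 (95% interval -0.15 to 0.18, adjusted p = 0.91). The groups overlapped. The ratio of P4hb to the summed TPM of the 3 α subunits was therefore 2.59 ± 0.0397 (SD, n = 3) with PBS and 0.960 ± 0.0312 with TGF-β1. Within the α subunits the share of P4ha1 went from 75.7 ± 0.35% to 68.0 ± 0.782% and that of P4ha3 from 4.42 ± 0.373% to 7.03 ± 1.17%, with no test of these shares.

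Serpinh1 had 1281, 1317 and 1249.7 TPM with PBS and 2349, 2496 and 2310.2 TPM with TGF-β1, a log2 difference of 0.89 ± 0.11 (adjusted p = 6.44e-07) with no overlap. P3h1 had 115, 111 and 113 TPM with PBS and 149, 156 and 157 TPM with TGF-β1 (0.44 ± 0.13, adjusted p = 0.00722). Its partner Crtap had 310.0, 329 and 328 TPM with PBS and 266, 306 and 275 TPM with TGF-β1, a log2 difference of -0.19 that did not pass (adjusted p = 0.0501). Without the second TGF-β1 library the Crtap difference was -0.25 (adjusted p = 0.0152). With each library centred on its median gene, the Crtap difference was 0.000227 (adjusted p = 0.998). The ratio of P3h1 to Crtap was 0.351 ± 0.0179 with PBS and 0.547 ± 0.0333 with TGF-β1.

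The genes of the extracellular cut did not rise. Bmp1 had 621, 636 and 605 TPM with PBS and 616, 568 and 647 TPM with TGF-β1 (-0.03, 95% interval -0.20 to 0.15, adjusted p = 0.821). Pcolce had 1226, 1285 and 1289.8 TPM with PBS and 864, 1025 and 912 TPM with TGF-β1, with no overlap, and fell by 0.44 ± 0.11 on the log2 scale (adjusted p = 0.00196). The median of all genes moved by -0.20 on the log2 scale here. With each library centred on its median gene, the Pcolce difference was -0.25 and did not pass (adjusted p = 0.143), and the calls over all genes went from 1590 higher and 4767 lower to 2789 higher and 3010 lower.

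**Figure D1:**
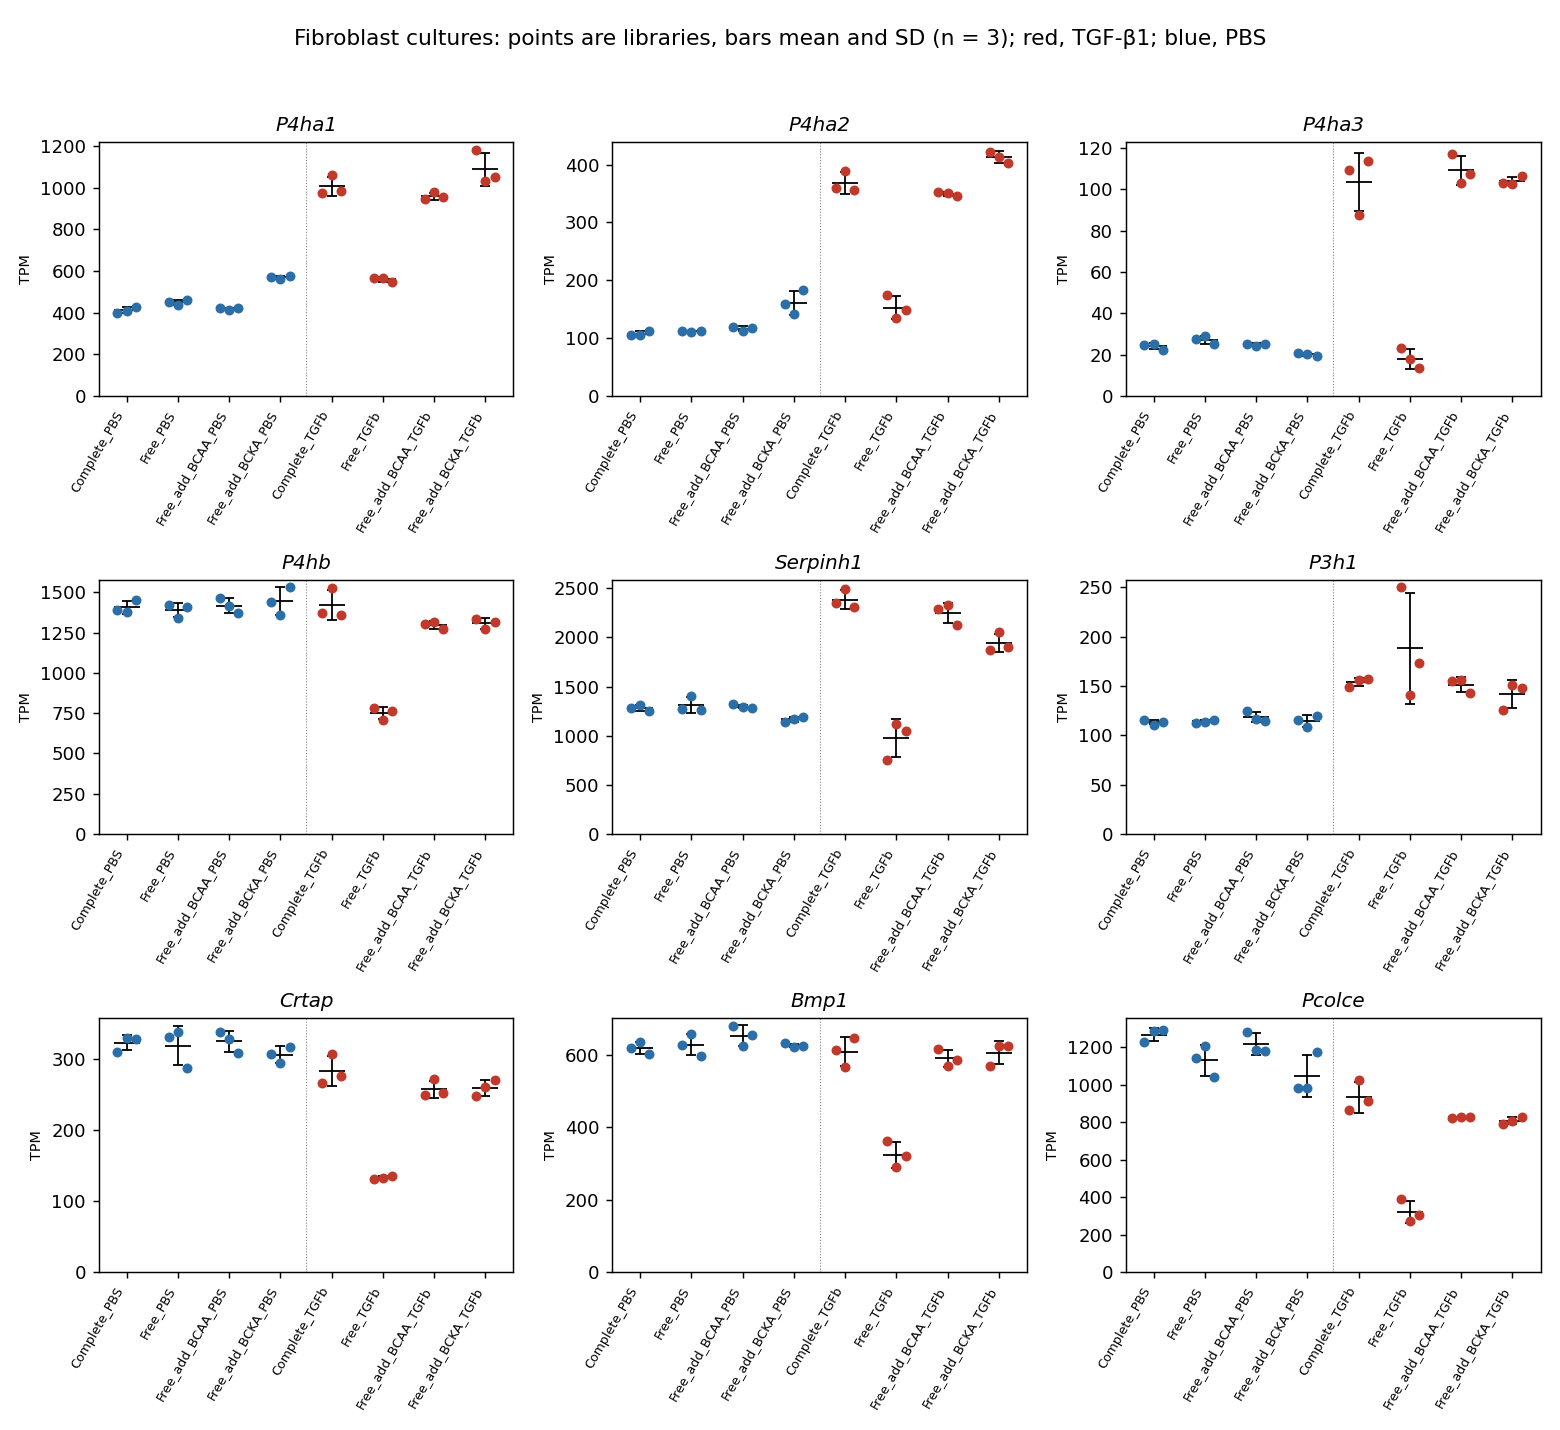
Levels of the 9 genes in TPM (linear axes from 0) in the 8 culture groups, with 1 point per library and bars for mean and SD (n = 3), where Free is BCAA-free medium and add names what was returned to it. The α subunits and Serpinh1 are high in the TGF-β1 groups other than BCAA-free medium, while P4hb, Crtap, Bmp1 and Pcolce are lowest in BCAA-free medium with TGF-β1.

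Genes around the members moved unevenly with TGF-β1. Of the 7 procollagen chain genes tested 6 rose, Col11a1 by 2.43 and Col1a1 by 2.33 on the log2 scale. Among 24 other genes of procollagen folding, export and cleavage, 10 rose and 5 fell, with a median of 0.05 against -0.20 for all genes. Sparc, a collagen-binding secreted protein, rose by 1.26, and Adamts3, which cuts N-terminal propeptides, fell by 3.03. Of 15 folding genes of the endoplasmic reticulum 1 rose and 9 fell, with Ero1a up by 1.59 and Dnajb9 at -0.93. Of 12 hypoxia-inducible genes 8 rose and 2 fell (Ero1a 1.59, Car9 1.43).

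Removing BCAAs did not move any member detectably in cells without TGF-β1. In limma 0 of 9 rose and 0 fell, and 0 had an unadjusted p under 0.05, against 0.573% of all genes called higher and 0.336% lower. The log2 differences ran from -0.17 for Pcolce (adjusted p = 0.878) to 0.17 for P4ha3. For example, P4ha1 had 451, 436 and 459 TPM in BCAA-free medium, 0.13 above complete medium (adjusted p = 0.801). P4hb had 1421, 1339.8 and 1408 TPM there, and Pcolce had 1144, 1204 and 1041 TPM.

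Under TGF-β1 the same removal lowered 8 of the 9 genes, against 24.8% of all genes called lower and 35.5% higher. The member that did not pass was P3h1. The median of the members was -1.08 on the log2 scale, and that of all genes was 0.10. P4ha3 had 23.0, 17.6 and 13.3 TPM in BCAA-free medium with TGF-β1, and fell by 2.48 ± 0.13 from complete medium with TGF-β1 (adjusted p = 5.02e-13). P4ha2 had 174, 135 and 149 TPM (-1.27 ± 0.09, adjusted p = 9.55e-11), and P4ha1 had 569, 565 and 548 TPM (-0.84 ± 0.07, adjusted p = 1.6e-09). For each α subunit the library values lay below every library of complete medium with TGF-β1.

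The members that TGF-β1 had not raised in complete medium also fell. P4hb had 779, 705 and 766 TPM (-0.92, adjusted p = 2.16e-09), and Bmp1 had 363, 291 and 321 TPM (-0.91, adjusted p = 5.8e-09). Crtap had 131, 132 and 135 TPM (-1.08, adjusted p = 1.35e-10), and Pcolce had 387, 271 and 306 TPM (-1.55, adjusted p = 6.7e-11). The libraries of BCAA-free medium with TGF-β1 were the lowest of all 24 for these 4 genes. Serpinh1 had 754, 1116 and 1049 TPM (-1.31, adjusted p = 1.04e-09), below every other group of the cultures.

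P3h1 stood apart, with 250.0, 141 and 173 TPM in BCAA-free medium with TGF-β1, a wide spread that overlapped complete medium with TGF-β1 (0.25, 95% interval -0.02 to 0.51, adjusted p = 0.104). Its highest value came from the library with high Col1a1: without that library the difference was 0.02 (adjusted p = 0.843), and without the second library it was 0.43 (adjusted p = 0.00241). The ratio of P3h1 to Crtap was 1.42 ± 0.436, against 0.547 ± 0.0333 in complete medium with TGF-β1. Without the library with high Col1a1, 8 of 9 were still lower, with differences of -0.85 for P4ha1, -1.37 for P4ha2, -2.67 for P4ha3, -0.95 for P4hb, -1.14 for Serpinh1, -1.07 for Crtap, -0.99 for Bmp1 and -1.69 for Pcolce. Over the 8 group means of log2(TPM + 1), among 10966 genes, the patterns most like P3h1 were those of Pck2, Mdh2 and Nans (Pearson r 0.997, 0.996 and 0.993), which share the libraries and the scaling. These means include the library with high Col1a1, and the likeness was not computed without it.

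Against PBS in the same BCAA-free medium, TGF-β1 raised 3 members and lowered 6, with 29.2% of all genes called higher and 34.9% lower. P4ha1 rose by 0.32 (adjusted p = 0.000553), P4ha2 by 0.44 (adjusted p = 0.000236) and P3h1 by 0.68 (adjusted p = 9.66e-05). P4ha3 fell by 0.59 (adjusted p = 0.000459), Serpinh1 by 0.45 (adjusted p = 0.00115), P4hb by 0.89, Bmp1 by 0.96, Crtap by 1.25 and Pcolce by 1.82 (adjusted p = 2.08e-12). In a fit of only these 2 groups P4ha1, P4ha3 and Serpinh1 did not pass (adjusted p = 0.0691, 0.0548 and 0.0827). Without the library with high Col1a1 the Serpinh1 difference was -0.28 and the P3h1 difference 0.45.

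The TGF-β1 response itself differed between media for 8 members, by the test of the interaction, and each response was lower in BCAA-free medium. Of all genes 18.4% had a lower and 29.2% a higher response there. The difference of the log2 responses was -2.65 ± 0.19 for P4ha3 (adjusted p = 1.59e-10), -1.38 for Pcolce, -1.34 for Serpinh1, -1.32 for P4ha2, -1.06 for Crtap, -0.97 for P4ha1, -0.93 for Bmp1 and -0.90 for P4hb. For P3h1 it was 0.23 (adjusted p = 0.303). Without the library with high Col1a1 the P3h1 value was 0.01 (adjusted p = 0.951), and without the second library of BCAA-free medium with TGF-β1 it was 0.42 (adjusted p = 0.0258). The calls over all genes were 3820 higher and 2405 lower, and 3069 and 3058 with median centring.

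**Figure D2:**
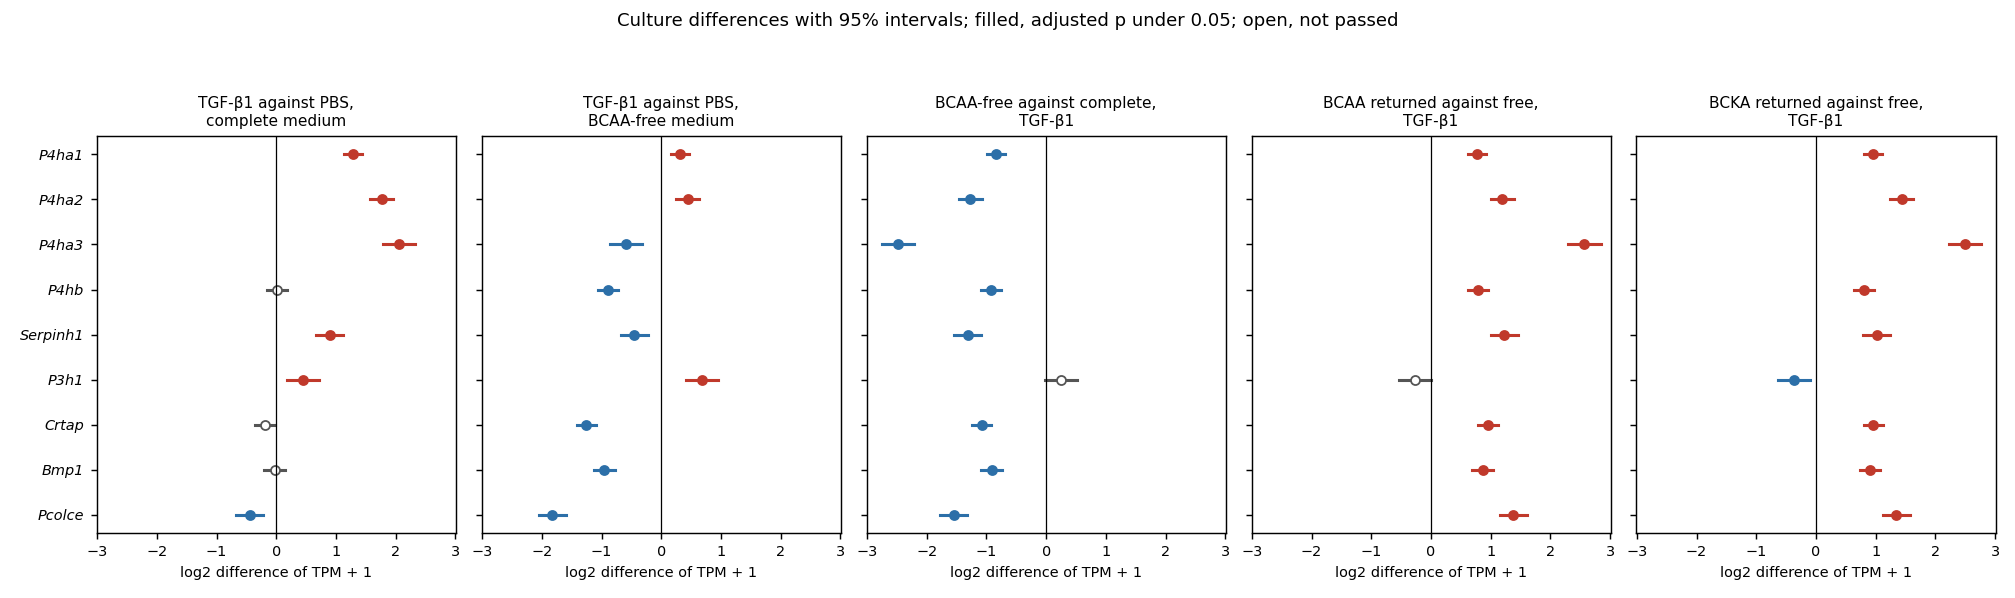
Log2(TPM + 1) differences of the 9 genes with 95% intervals in 5 culture comparisons, where filled points passed the adjusted threshold and open points did not. BCAA removal under TGF-β1 lies between -2.48 for P4ha3 and 0.25 for P3h1, and the return of BCAAs or BCKAs lies on the other side of 0 for each gene. Removal and return share the libraries of BCAA-free medium with TGF-β1, with opposite sign, so opposite directions are partly built in.

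Around the members, removal under TGF-β1 lowered 16 and raised 4 of the 24 other procollagen genes (median -0.69 against 0.10 for all genes). Fkbp7, a prolyl isomerase, fell by 1.83, and Adamts14, another N-propeptide protease, rose by 2.20. Of the 7 chain genes 4 fell and 1 rose (Col5a3 -1.45, Col1a1 -1.37), and without the library with high Col1a1 6 fell and 1 rose (Col5a3 -1.82, Col1a1 -2.17). The 15 endoplasmic reticulum genes split into 5 higher and 5 lower: Hspa5, the chaperone BiP, rose by 1.28, and Calr, calreticulin, fell by 0.92. Of 12 target genes of ATF4, the transcription factor of the amino acid response, 11 rose and 0 fell, led by Trib3 (3.49) and Ddit3 (3.37), and any part of this in the members' values was not tested.

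Adding BCAAs back to BCAA-free medium with TGF-β1 returned 8 members to higher levels, against 25% of all genes called higher and 33.3% lower, and 0 fell in limma, with 1 (P3h1) at an unadjusted p under 0.05. P4ha3 had 117, 103 and 107 TPM (2.57, adjusted p = 2.84e-13), and Serpinh1 had 2288, 2328 and 2131 TPM (1.23). P4ha1 had 946, 978 and 954 TPM (0.77), and P4ha2 had 352, 351 and 345 TPM (1.20). These libraries lay above all libraries of BCAA-free medium with TGF-β1. The other differences were 1.38 for Pcolce, 0.95 for Crtap, 0.87 for Bmp1 and 0.79 for P4hb. P3h1 had 155, 156 and 143 TPM (-0.27, adjusted p = 0.0738). Without the library with high Col1a1 the P3h1 difference was -0.05 (adjusted p = 0.647), and without the second BCAA-free library it was -0.46 (adjusted p = 0.00151).

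BCKAs returned the same 8 members to higher levels, against 25.1% of all genes called higher and 33.4% lower. P4ha3 had 103, 103 and 106 TPM (2.50), P4ha1 had 1180.2, 1035 and 1051 TPM (0.95), and P4ha2 had 423, 414 and 403 TPM (1.44). The remaining differences were 1.34 for Pcolce, 1.02 for Serpinh1, 0.96 for Crtap, 0.91 for Bmp1 and 0.80 for P4hb. P3h1, with 126, 151 and 148 TPM, fell by 0.37 (adjusted p = 0.0181). The P3h1 call did not hold without the library with high Col1a1 (-0.14, adjusted p = 0.153), without the first BCKA library (-0.29, adjusted p = 0.0960) or with median centring (adjusted p = 0.146), and without the second BCAA-free library the difference was -0.55.

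No member passed the test between either addition and complete medium with TGF-β1. With BCAAs 0 of 9 passed in limma and 0 had an unadjusted p under 0.05 (0% of all genes higher, 0.0153% lower), and the differences lay between -0.17 and 0.08. With BCKAs 0 of 9 passed and 1, Serpinh1 (-0.30, adjusted p = 0.375), had an unadjusted p under 0.05 (0.405% higher, 0.206% lower). BCKAs against BCAAs, the direct comparison of the amino acids with the keto acids made from them, gave 0 of 9 past the threshold, with 2 at an unadjusted p under 0.05 (0.222% of all genes higher, 0.0459% lower). These were P4ha1 (0.18, 95% interval 0.03 to 0.33, adjusted p = 0.992) and P4ha2 (0.24, interval 0.05 to 0.43, adjusted p = 0.856). Serpinh1 was at -0.21 (interval -0.44 to 0.02), and the other 6 lay between -0.09 and 0.04.

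Without TGF-β1, BCAAs moved 0 of 9 members in limma, with 0 at an unadjusted p under 0.05 (0.122% of all genes higher, 0.138% lower). BCKAs raised 2, P4ha1 and P4ha2, and lowered 0, with 1 (P4ha3) lower at an unadjusted p under 0.05, against 0.397% of all genes higher and 0.268% lower. P4ha1 had 573, 560.0 and 574 TPM with BCKAs, above the 451, 436 and 459 TPM of BCAA-free medium (0.34, adjusted p = 0.0217). P4ha2 had 159, 141 and 182 TPM against 112, 110.0 and 113 TPM (0.52, adjusted p = 0.00444). P4ha3 went the other way, with 20.9, 20.3 and 19.3 TPM against 27.4, 28.9 and 25.0 TPM (-0.41, adjusted p = 0.259). The groups did not overlap for any of the 3, but how often this occurred among all genes was not counted. The share of P4ha3 among the α subunits was 2.69 ± 0.176% with BCKAs.

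The calls for P4ha1 and P4ha2 under BCKAs without TGF-β1 depended on single libraries. P4ha1 did not pass when any 1 of the 6 libraries compared was left out (adjusted p = 0.0546 to 0.114), and P4ha2 did not pass without the third BCKA library (0.42, adjusted p = 0.0579). With median centring the adjusted p was 0.135 for P4ha1 and 0.0642 for P4ha2.

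The same keto acid libraries had higher levels of hypoxia-inducible genes: 8 of 12 rose and 0 fell (median 0.63 against 0.03 for all genes). These included Egln3 (0.92, adjusted p = 8.81e-05), which hydroxylates the hypoxia-inducible factor itself, and Ankrd37 (0.86, adjusted p = 0.00767). Of the 4 prolyl hydroxylases of other substrates 2 rose, Egln3 and Egln1 (0.44, adjusted p = 0.00138), and of 24 other procollagen genes 0 did. With TGF-β1, BCKAs against BCAAs again raised 8 of 12 hypoxia-inducible genes and lowered 0 (median 0.58), among them Egln3 (1.15, adjusted p = 9.38e-06), and 0 of 24 other procollagen genes passed. The core letters marked in the stretches of P4ha1 and P4ha2 were also present for P4hb, which had 1440.2, 1362 and 1535 TPM with BCKAs and PBS and did not pass, and their part in these values was not tested.

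Across the 8 group means of log2(TPM + 1), which share libraries and scaling, the members fell into patterns. The means include the library with high Col1a1, and the correlations were not computed without it. P4ha1 and P4ha2 were nearly parallel (Pearson r 0.997), P4ha3 was closest to Serpinh1 (0.972), P4hb to Bmp1 (0.992) and Crtap to Pcolce (0.996), while P3h1 ran opposite to Pcolce (-0.873). The genes most like P4ha1 were Nxph4 (0.998), Ptprn (0.997) and P4ha2 (0.997), and those most like P4ha3 were Ciao2b, Pde2a and Nedd9 (0.998, 0.997 and 0.997). Selenow, Dbi and S100a1 were most like P4hb (0.999, 0.997 and 0.997).

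In the lungs, bleomycin raised P4ha3 more than any other member in all 3 experiments, and raised P3h1, Crtap, Pcolce and, in TPM as deposited, P4hb in each. In bulk lung, more cells of a type and more RNA per cell cannot be told apart. P4ha3 had 0.856, 1.54 and 0.957 TPM in the uninjured mice of the water experiment and 19.5, 15.0 and 9.72 TPM after bleomycin, a log2(TPM + 1) difference of 2.86 ± 0.24 (adjusted p = 4.55e-05). In the diet experiment it had 2.01, 2.75, 2.66 and 2.65 TPM, and 52.7, 44.0, 54.6 and 43.1 TPM after bleomycin (3.81 ± 0.16, adjusted p = 7.56e-09). In the BT2 experiment it had 1.73, 2.13 and 1.48 TPM, and 46.2, 45.0 and 42.0 TPM after bleomycin with DMSO (4.04 ± 0.32, adjusted p = 8.16e-05). The groups were far apart in each experiment, and since the scale adds 1 TPM, these differences understate the fold change of a gene this low.

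Summed fibroblast markers rose in the same lungs, with 328 to 551 TPM in uninjured mice and 715 to 978 TPM after bleomycin in the water experiment. The ranges were 200.3 to 279 TPM and 1225 to 1401 TPM for the diet experiment, and 489 to 540.1 TPM and 1307 to 1589 TPM for BT2. This sum includes the procollagen chain gene Col1a2. Its means in uninjured and bleomycin mice were 48.4 and 247 TPM (water), 55.1 and 674 TPM (diet), and 57.9 and 783 TPM (BT2). Summed macrophage markers were also higher, for example 778 to 957 TPM against 63.6 to 74.1 TPM in the BT2 experiment. Summed airway markers, which reached 285425 TPM in an uninjured lung, were lower after bleomycin: means went from 180511 to 75343 TPM (water), from 198428 to 26801 TPM (diet) and from 126403 to 18801 TPM (BT2). The part of these cell types in the members' values was not tested. The uninjured mice of the diet experiment had 137 to 229 TPM of summed endothelial markers, against 565 to 2065 TPM in the other 8 lung groups. The labels describe extraction from heart tissue, while alveolar type 2 markers were present in each library. Summed cardiac muscle markers were 180 to 322 TPM in uninjured and 86.9 to 195 TPM in bleomycin mice of the water experiment, 912 to 1948 TPM and 57.1 to 105 TPM in the diet experiment, and 623 to 1523 TPM and 94.1 to 120.1 TPM in the BT2 experiment.

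In the water experiment 6 of 9 members rose after bleomycin and 0 fell in limma, with 1 (P4ha2) lower at an unadjusted p under 0.05, against 14.8% of all 17209 genes called higher and 7.08% lower. P3h1 had 9.21, 13.8 and 10.5 TPM, and 32.1, 30.3 and 24.1 TPM after bleomycin (1.30, adjusted p = 0.000534). Serpinh1 had 331, 323 and 277 TPM, and 798, 719 and 712 TPM after bleomycin (1.26, adjusted p = 0.000228). Crtap went from 51.9 ± 5.83 to 104 ± 9.51 TPM (SD, n = 3; 0.99, adjusted p = 0.000531). P4hb rose by 0.78 (adjusted p = 0.00475) and Pcolce by 0.68 (adjusted p = 0.00503). P4ha1 (0.19, adjusted p = 0.482), P4ha2 (-0.31, adjusted p = 0.121) and Bmp1 (0.18, adjusted p = 0.424) did not pass, and P4ha2 was lower with median centring (-0.40, adjusted p = 0.0268). Centring changed the calls over all genes from 2555 higher and 1218 lower to 2462 and 2116.

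In the diet experiment all 9 members rose after bleomycin in TPM as deposited, P4hb with a direction that turned with centring, and 48.7% of all 18593 genes were called higher and 12.3% lower. The median of all genes was 0.56, so the members are also given relative to it, with each library centred on its median gene. P3h1 had 9.97, 11.9, 11.6 and 8.04 TPM, and 68.7, 70.8, 73.4 and 73.3 TPM after bleomycin (2.69, adjusted p = 5.1e-08; 2.12 centred). Bmp1 had 16.8, 17.0, 19.4 and 13.0 TPM, and 103, 91.9, 90.9 and 97.0 TPM after bleomycin (2.47; 1.91 centred). The groups were wide apart for both. Serpinh1 rose by 2.08 (1.51 centred), Crtap by 1.85 (1.29), Pcolce by 1.45 (0.89), P4ha1 by 1.11 (0.54) and P4ha2 by 1.04 (0.47). P4hb rose by 0.40 (adjusted p = 0.0349) but was at -0.16 when centred (adjusted p = 0.27). P4hb did not pass when any 1 of 7 of the 8 libraries was left out (adjusted p = 0.0501 to 0.0785; 0.26 without the fourth uninjured mouse). Centring moved the calls over all genes from 9047 higher and 2281 lower to 4515 and 4696.

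In the BT2 experiment 5 members rose and 2 fell after bleomycin, against 17.3% of all 18151 genes called higher and 13.3% lower. Crtap had 72.2, 63.0 and 74.2 TPM, and 180.0, 179.6 and 171 TPM after bleomycin with DMSO (1.33, adjusted p = 0.000393). P3h1 rose by 1.41 (adjusted p = 0.0033), P4hb by 0.83 (adjusted p = 0.00551) and Pcolce by 0.74 (adjusted p = 0.00957). P4ha1 fell, from 93.4, 95.4 and 78.9 TPM to 39.7, 73.3 and 45.1 TPM (-0.79, adjusted p = 0.0271). P4ha2 fell from 71.6, 74.4 and 61.8 TPM to 27.8, 51.7 and 23.6 TPM (-1.07, adjusted p = 0.0127). Neither pair of groups overlapped, and in each the second bleomycin library was the highest of its group. Serpinh1 (0.63, adjusted p = 0.148) and Bmp1 (0.40, adjusted p = 0.173) did not pass. The P4ha1 call did not hold without the first or the second uninjured library or the first or the third bleomycin library (adjusted p = 0.0716 to 0.0863), and Bmp1 passed without the first bleomycin library (0.62, adjusted p = 0.0256).

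P4ha1 and P4ha2 thus had opposite directions after bleomycin in the diet and BT2 experiments, a difference that was not tested because the tables were scaled separately. P4ha1 had 33.8, 25.4, 45.3 and 24.0 TPM in the uninjured mice of the diet experiment and 70.2, 58.2, 64.3 and 82.5 TPM after bleomycin. P4ha2 had 25.2, 17.6, 28.5 and 18.5 TPM, and 41.8, 52.5, 46.3 and 44.7 TPM after bleomycin. Levels in the uninjured mice differed between the experiments at the same time. Summed alveolar type 2 markers differed along with them: 8496 to 12766 TPM in uninjured and 18881 to 26549 TPM in bleomycin mice of the diet experiment, and 46945 to 59853 TPM in uninjured and 2264 to 15475 TPM in bleomycin mice of the BT2 experiment. Their part in the P4ha1 and P4ha2 values was not tested.

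**Figure D3:**
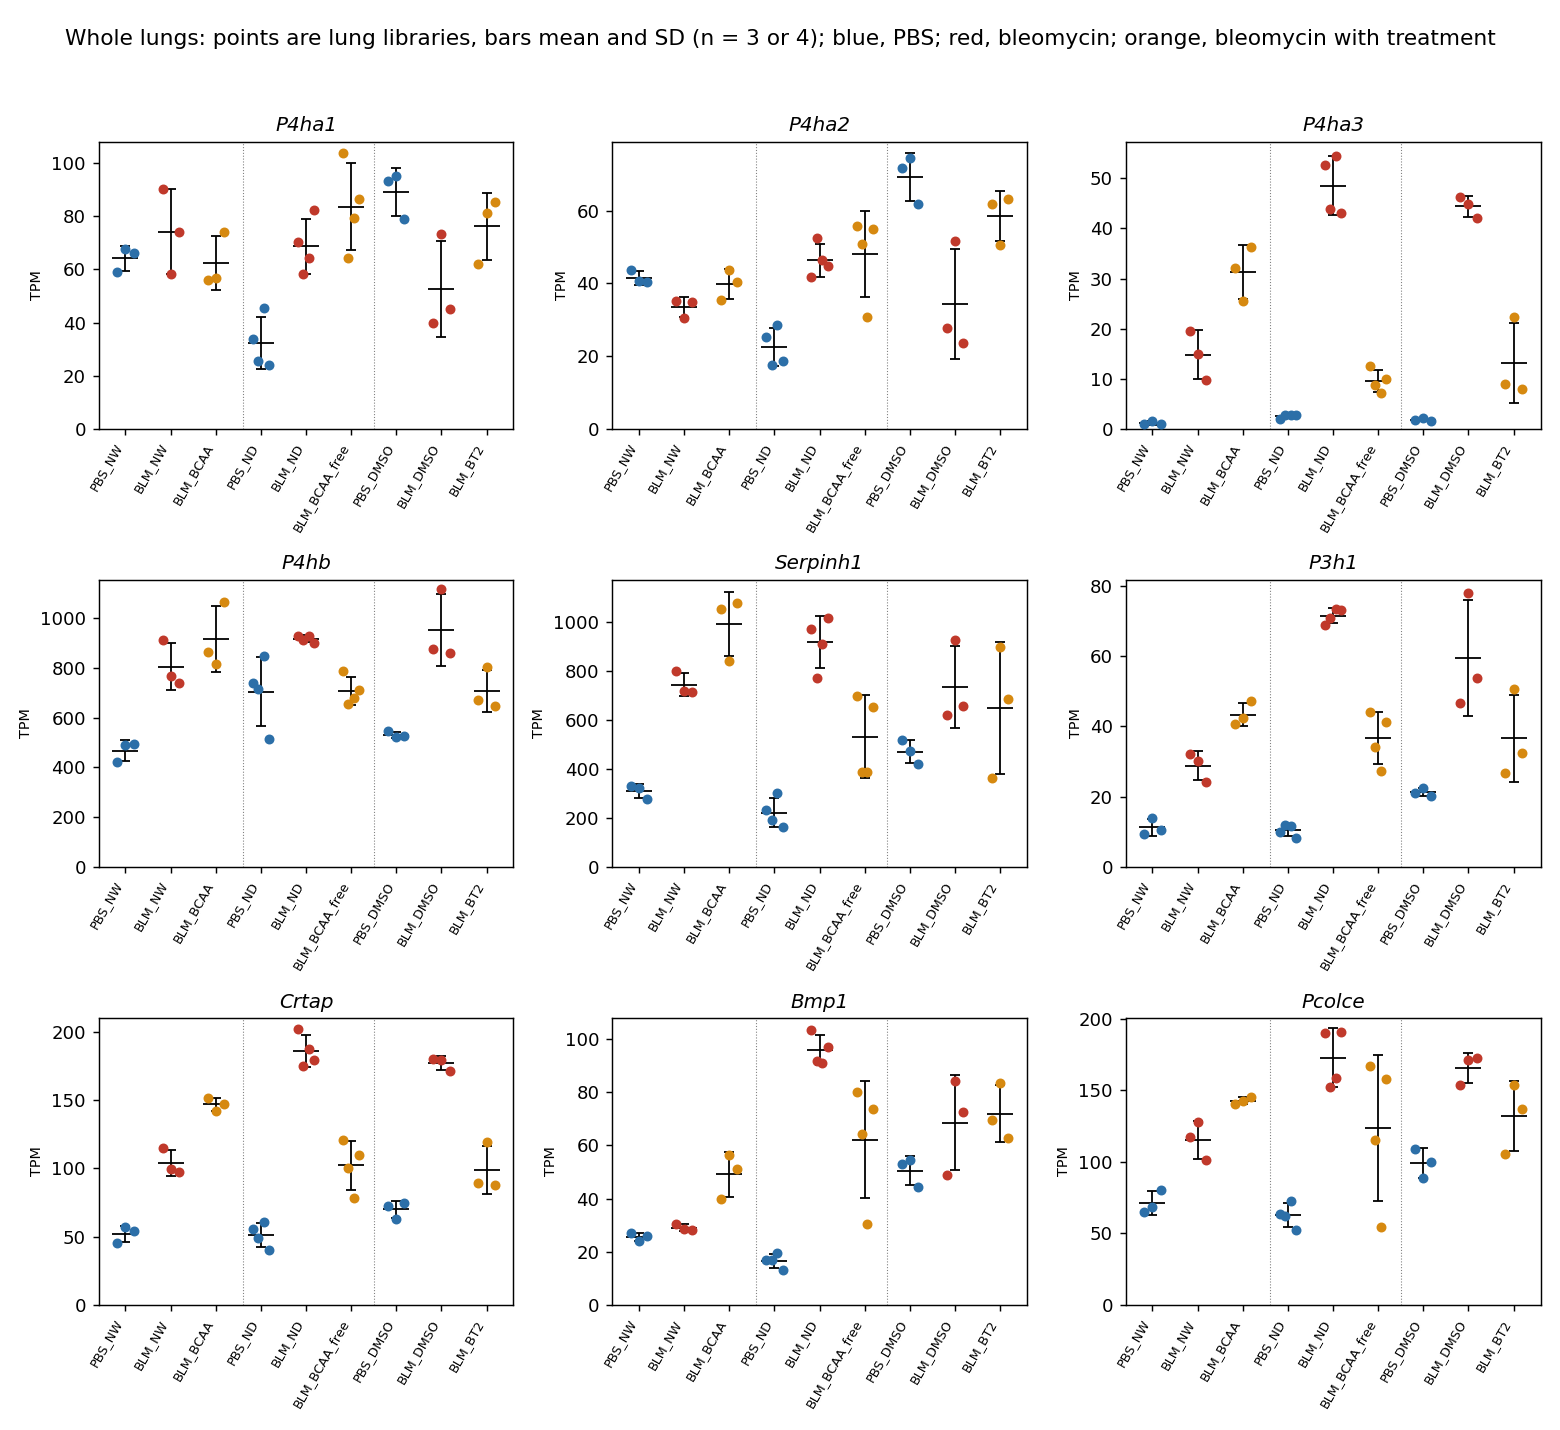
Levels of the 9 genes in TPM (linear axes from 0) in the 9 lung groups, with 1 point per library and bars for mean and SD (n = 3 or 4). PBS_NW, BLM_NW and BLM_BCAA are the water experiment, PBS_ND, BLM_ND and BLM_BCAA_free the diet experiment, and PBS_DMSO, BLM_DMSO and BLM_BT2 the BT2 experiment; P4ha3 is at 0.856 to 2.75 TPM in uninjured lungs and at 9.72 to 54.6 TPM after bleomycin alone or with DMSO.

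P4ha3 was a larger part of the α subunit transcripts in each bleomycin group than in its uninjured group. It made up 1.04 ± 0.316% of the α subunit TPM in uninjured lungs of the water experiment and 12.0 ± 3.37% after bleomycin (SD, n = 3). In the diet experiment the share went from 4.67 ± 1.48% to 29.7 ± 3.53% (n = 4), and in the BT2 experiment from 1.11 ± 0.114% to 35.0 ± 7.53% (n = 3). These shares are descriptions with no test. Set against collagen, P4ha3 had group means of 2.03 to 4.05 TPM per 100 TPM of Col1a1 in the 9 lung groups, while Col1a1 itself had group means between 54.5 and 1328 TPM. Single libraries ran from 1.51 to 4.97, and the group mean was higher after bleomycin than in uninjured lungs in each experiment, at 3.99 against 2.03 (water), 3.78 against 2.83 (diet) and 4.05 against 3.12 (BT2). The libraries of these groups overlapped in the diet and BT2 experiments, and the difference was not tested. In uninjured lungs the ratio rests on only 0.856 to 2.75 TPM of P4ha3. P4hb per 100 TPM of Col1a1 had group means from 900 in uninjured mice of the BT2 experiment to 71.4 after bleomycin in the diet experiment.

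**Figure D4:**
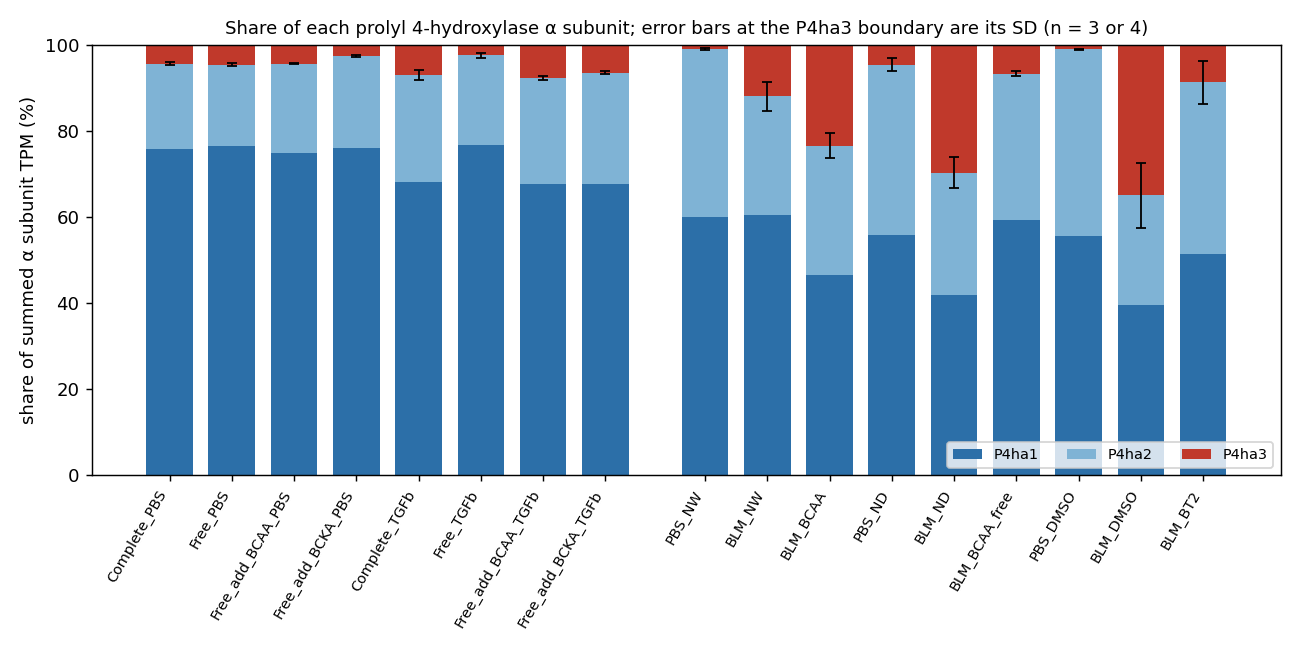
Mean share of P4ha1, P4ha2 and P4ha3 in their summed TPM (percent, stacked bars) in the 8 culture and 9 lung groups, with the SD of the P4ha3 share at its boundary (n = 3 or 4). The P4ha3 share is 1.04 to 4.67% in uninjured lungs and 12.0 to 35.0% after bleomycin alone or with DMSO.

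Around the members, bleomycin raised 11 of the 24 other procollagen genes in the water, 23 in the diet and 16 in the BT2 experiment, and lowered 0, 0 and 2. Fkbp10, a prolyl isomerase of the endoplasmic reticulum needed for collagen cross-linking, rose by 1.53, 3.14 and 2.41, and Sparc by 1.92 with water and 4.39 with diet. The list medians were 0.59, 1.61 and 0.87, against 0.09, 0.56 and -0.02 for all genes. Of the 7 chain genes 6, 7 and 7 rose, with list medians of 2.31, 3.85 and 4.02. Of all genes 14.8%, 48.7% and 17.3% were called higher and 7.08%, 12.3% and 13.3% lower.

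BCAAs in the drinking water raised 1 of 9 members in mice given bleomycin, Bmp1, and lowered 0 in limma, while 6 were higher and 0 lower by an unadjusted p below 0.05, against 0.872% of all genes called higher and 0.331% lower. Bmp1 had 30.5, 28.4 and 28.2 TPM with bleomycin alone and 39.9, 56.3 and 51.2 TPM with BCAAs, with no overlap (0.73 ± 0.15, adjusted p = 0.0446). P4ha3 had 32.1, 25.5 and 36.4 TPM with BCAAs, above the 19.5, 15.0 and 9.72 TPM of bleomycin alone, and did not pass (1.07, 95% interval 0.54 to 1.61, adjusted p = 0.0639). Crtap (0.50, adjusted p = 0.093), P3h1 (0.58, adjusted p = 0.129), Serpinh1 (0.41, adjusted p = 0.191) and Pcolce (0.31, adjusted p = 0.272) did not pass. Of the 7 chain genes 4 rose, among them Col5a3 (1.71) and Col1a1 (1.34), and of 24 other procollagen genes 1 did, Fkbp10 (0.95, adjusted p = 0.0156).

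The Bmp1 call depended on single libraries. It did not hold when any 1 of the 3 bleomycin libraries, or the second or the third BCAA library, was left out (adjusted p = 0.0520 to 0.182). Summed fibroblast markers were 1068 to 1267 TPM with BCAAs and 715 to 978 TPM without. That sum includes the chain gene Col1a2, at 451 to 611 TPM with BCAAs and 178 to 299 TPM without. Means with BCAAs and without were 1146 and 850 TPM for the sum, and 528 and 247 TPM for Col1a2. Most of the difference in the sum was thus Col1a2. Summed macrophage markers were 419 to 599 TPM with BCAAs and 225 to 336 TPM without. The part of these cell types in the Bmp1 value was not tested.

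The BCAA-free diet lowered 4 of 9 members in mice given bleomycin, P4ha3, P3h1, Crtap and Serpinh1, and raised 0 in limma, while 0 were higher and 6 lower by an unadjusted p below 0.05. Of all genes 4.02% were called higher and 6.12% lower. P4ha3 had 12.5, 8.75, 7.17 and 9.86 TPM on the diet, against 52.7, 44.0, 54.6 and 43.1 TPM with bleomycin alone, and fell by 2.25 ± 0.16 (adjusted p = 3.5e-05). P3h1 had 44.0, 34.1, 27.3 and 41.3 TPM and fell by 0.97 (adjusted p = 0.0029). Crtap had 121, 100.1, 78.0 and 109.8 TPM, against 202, 175, 187 and 179 TPM, and fell by 0.87 (adjusted p = 0.00483). None of the 3 overlapped between the groups. The other α subunits did not follow P4ha3: P4ha1 had 104, 64.5, 79.5 and 86.5 TPM (0.27), P4ha2 had 55.6, 50.9, 30.6 and 54.9 TPM (0.02), and neither passed. The P4ha3 share of the α subunits was 6.73 ± 0.514% (SD, n = 4), against 29.7 ± 3.53% with bleomycin alone.

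Serpinh1 had 699, 386, 388 and 654 TPM on the diet and 969.7, 772, 908 and 1018 TPM without it (-0.83, adjusted p = 0.0446). This call did not hold when any 1 of 6 of the 8 libraries was left out (adjusted p = 0.0579 to 0.122), the diet library with few detected genes among them (0.0612). Without that library the differences were -2.13 for P4ha3, -0.84 for P3h1 and -0.75 for Crtap, and these 3 passed. Bmp1 (-0.70, adjusted p = 0.0993), Pcolce (-0.60, adjusted p = 0.218) and P4hb (-0.38, adjusted p = 0.142) did not pass. Of the 7 chain genes 7 fell, led by Col5a3 (-2.76) and Col5a1 (-1.98). Of 24 other procollagen genes 6 fell and 1 rose (median -0.37 against -0.09 for all genes): Fkbp10 fell by 1.60, and Pcolce2, a second enhancer of the C-terminal cut, rose by 2.04. Summed fibroblast markers were 906 to 1256 TPM on the diet and 1225 to 1401 TPM without it. That sum includes the chain gene Col1a2, at 197 to 485 TPM on the diet and 626 to 746 TPM without it. A fall of the sum thus need not be a fall of the other fibroblast markers. Summed macrophage markers were 265 to 365 TPM on the diet and 451 to 591 TPM without it. Alveolar type 2 markers were 39665 to 58889 TPM on the diet and 18881 to 26549 TPM without it, mesothelium markers 73.1 to 183 TPM and 240.5 to 495 TPM, and cardiac muscle markers 262 to 554 TPM and 57.1 to 105 TPM. The part of these cell types in the members' values was not tested.

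BT2 lowered 2 of 9 members in mice given bleomycin, P4ha3 and Crtap, and raised 0 in limma, while 2 were higher and 4 lower by an unadjusted p below 0.05, against 6.34% of all genes called higher and 5.41% lower (1151 and 982 genes, and 1652 and 1663 with median centring). P4ha3 had 9.01, 22.3 and 7.92 TPM with BT2, against 46.2, 45.0 and 42.0 TPM with DMSO, and fell by 1.83 ± 0.32 (adjusted p = 0.0138). Crtap had 89.2, 119 and 87.6 TPM, against 180.0, 179.6 and 171 TPM, and fell by 0.85 (adjusted p = 0.0147). The groups did not overlap for either, and the second BT2 library was the highest for both. P3h1 had 26.7, 50.6 and 32.4 TPM (-0.70, adjusted p = 0.0894), and without that second BT2 library it passed (-0.96, adjusted p = 0.0423). With the first or the third BT2 library left out, P4ha3 (-1.65 and -1.57, adjusted p = 0.0552 and 0.0703) and Crtap (-0.78 and -0.77, adjusted p = 0.0594 and 0.0754) did not pass.

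P4ha1 and P4ha2 were on the other side of 0. P4ha1 had 62.0, 81.1 and 85.6 TPM with BT2 (0.56, adjusted p = 0.125), and P4ha2 had 61.8, 50.6 and 63.3 TPM (0.83, adjusted p = 0.0622). Both passed without the second DMSO library (0.82, adjusted p = 0.0107, and 1.16, adjusted p = 0.0031). Summed alveolar type 2 markers were 43228 to 75852 TPM with BT2 and 2264 to 15475 TPM with DMSO, and their part in these values was not tested. Summed fibroblast markers were 666 to 1193 TPM with BT2 and 1307 to 1589 TPM with DMSO. The chain gene Col1a2, which is part of that sum, had 142 to 432 TPM with BT2 and 698 to 913 TPM with DMSO. Means with BT2 and with DMSO were 902 and 1458 TPM for the sum, and 264 and 783 TPM for Col1a2. Most of the difference in the sum was thus Col1a2. Summed macrophage markers were 325 to 459.5 TPM with BT2 and 778 to 957 TPM with DMSO. Airway markers were 50347 to 106120 TPM with BT2 and 12093 to 24939 TPM with DMSO. The part of these cell types in the P4ha3 and Crtap values was not tested. Of the 7 chain genes 7 fell (Col5a3 -2.29, Col5a1 -2.10). Of 24 other procollagen genes 6 fell and 2 rose, with Fkbp10 at -1.40 and Creb3l1, a transcription factor of collagen secretion, at -1.16.

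**Figure D5:**
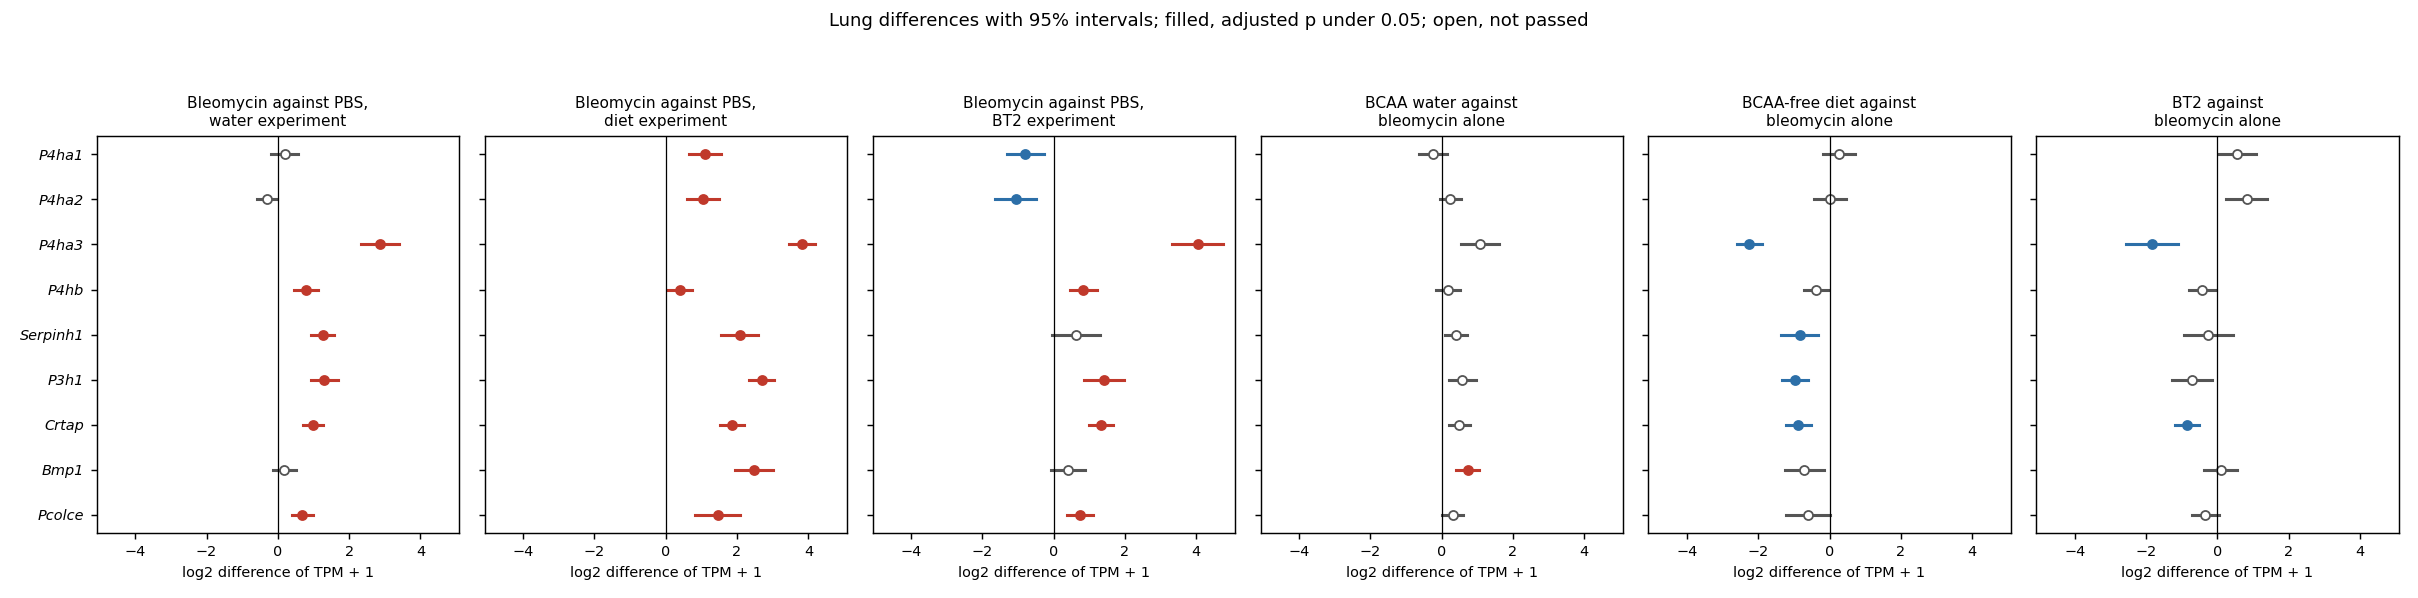
Log2(TPM + 1) differences of the 9 genes with 95% intervals, for bleomycin against PBS and for treatment against bleomycin alone (with DMSO in the BT2 experiment), where filled points passed the adjusted threshold and open points did not. P4ha3 lies at 2.86 to 4.04 with bleomycin and at -2.25 and -1.83 with the BCAA-free diet and BT2, and P4ha1 and P4ha2 differ in direction between experiments.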

How the data were processed

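Samples were grouped by their labels. The authors deposited 4 tables of TPM. The submitters' processing notes name mm39 as the build and the tools HISAT2, featureCounts, Subread, DESeq2, Trim Galore and FastQC; versions and annotation are not given in the sources used here. In the lung tables, unnamed entries (0.212 to 0.367% of TPM) were left out, and repeated symbols were added. The tables were scaled separately, and labelled batches follow them (cultures and each mouse experiment), so tests were made only within a table.

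For each table, log2(TPM + 1) of genes with at least 1 TPM in at least 3 libraries was fitted over all groups with limma 3.58.1 (trend; R 4.3.3) in 18 comparisons. P-values were adjusted by Benjamini-Hochberg over all genes tested and called under 0.05. The same code was tested on simulated data. All 9 members passed the filter in each table. The text names every member, and from each other list the passing genes with the largest changes. Overlap between groups was looked at only for the members and not over all genes, so statements about it are descriptions. The members and lists were chosen with earlier results of these data known. Alternatives were a pseudocount of 0.1, no filter, a filter at 5 TPM, median centring, fits of only the groups compared, a replicate block, array weights and leaving out each library; leaving out the library with high Col1a1 was also tried for the other lists, a choice made after seeing the data. Precision is limited by 3 or 4 libraries per group, and counting error is unknown. Promoter windows were taken from RefSeq (GRCm38.p6) by symbol and searched on both strands.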

Additional observations from a re-analysis of the deposited data

Results flagged for a closer look

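For 8 members the TGF-β1 response differed between BCAA-free and complete medium by the limma test of the interaction: P4ha1 (-0.97), P4ha2 (-1.32), P4ha3 (-2.65), P4hb (-0.90), Serpinh1 (-1.34), Crtap (-1.06), Bmp1 (-0.93) and Pcolce (-1.38), as log2 differences of responses. After bleomycin, the libraries of P4ha1 lay entirely above the uninjured ones in the diet experiment (1.11) and entirely below them in the BT2 experiment (-0.79). The libraries of P4ha2 lay entirely below in the water (-0.31) and BT2 (-1.07) experiments and entirely above in the diet experiment (1.04). These differences between experiments were not tested. P4ha3 in the first uninjured mouse of the diet experiment, at 2.01 TPM, lay apart from the other 3 of its group (2.65 to 2.75 TPM). This was 1 of 27 sets of 4 values looked at, and chance gives about 1 in 20.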

How the results depend on the processing

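Of single-member values, 984 with a library left out and 1058 under the other alternatives kept their direction and their side of the threshold, 35 and 23 no longer passed, 8 and 34 newly passed, and 35 and 18 that did not pass changed sign without passing. Of the values that passed, P4hb after bleomycin in the diet experiment turned, with median centring (-0.16, adjusted p = 0.27). Counts of members called moved by over 1.5 times as follows. In complete medium, TGF-β1 lowered 2 without a filter, with the 5 TPM filter and with array weights, and 0 with centring. With array weights, removal of BCAAs gave 2 higher and 1 lower with PBS and 1 higher under TGF-β1, the interaction 1 higher, BCAAs added under TGF-β1 1 lower and with PBS 1 lower, BCKAs against BCAAs 2 higher and 1 lower, BCKAs against complete medium 1 and 1, BCKAs with PBS 3 lower, BCAA water 6 higher and BT2 2 higher. BCKAs under TGF-β1 lowered 0 with centring or a fit of only the groups compared, and BCKAs with PBS raised 0 in both. Bleomycin in the water experiment lowered 1 with centring. BCAA water raised 0 with the pseudocount of 0.1, no filter, only the groups compared or the block, and 2 with the 5 TPM filter. Bleomycin in the BT2 experiment lowered 1 without a filter or with only the groups compared, and BT2 lowered 0 with only the groups compared. Smaller moves were 6 lower with array weights and 3 with the pseudocount of 0.1, no filter, only the groups compared or the block for the BCAA-free diet, 3 lower with centring, array weights or the block for BT2, 6 higher with centring or array weights for bleomycin in the BT2 experiment, 8 higher with centring or no filter for bleomycin in the diet experiment, and 2 higher and 4 lower with only the groups compared for TGF-β1 in BCAA-free medium. The cause of these moves was not tested.

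With 1 library left out, the counts ranged from 1 to 2 lower for TGF-β1 in complete medium, 0 to 1 higher for removal under TGF-β1 and for the interaction, 0 to 1 lower for BCAAs and for BCKAs under TGF-β1, 0 to 1 higher for BCKAs with PBS, 0 to 1 higher for BCAA water, 8 to 9 higher for bleomycin in the diet experiment, 3 to 4 lower for the BCAA-free diet, 5 to 6 higher and 1 to 2 lower for bleomycin in the BT2 experiment, and 0 to 2 higher and 0 to 3 lower for BT2.

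Median centring also moved the calls over all genes from 16 higher and 18 lower to 14 and 27 for BCAAs with PBS, from 52 and 35 to 37 and 38 for BCKAs with PBS, from 150 and 57 to 214 and 134 for BCAA water, and from 748 and 1137 to 1380 and 1095 for the BCAA-free diet. The replicate numbers were not used to pair samples in the main fits. Deviations of same-numbered libraries correlated between -0.486 and 0.535 in culture (median 0.011) and between -0.252 and 0.190 in lungs. For other-numbered libraries the ranges were -0.565 to 0.627 (median -0.003) and -0.243 to 0.285. With so few libraries per group, these values cannot exclude a culture or day shared by number. With the replicate block, Bmp1 with BCAA water (adjusted p = 0.111) and Serpinh1 on the BCAA-free diet (0.0667) did not pass, and P3h1 with BT2 did (0.0482).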

Other observations

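Target genes of ATF4 were also measured in every comparison. In BCAA-free medium TGF-β1 raised 12 of 12 ATF4 target genes against PBS, and in complete medium it raised 8 and lowered 1, with Trib3 at 2.04 and Asns, asparagine synthetase, at 1.92. The test of the interaction found a higher response in BCAA-free medium for 12 of 12. Adding back BCAAs or BCKAs under TGF-β1 lowered 11 of 12 each. Of all genes 29.2% were called higher by TGF-β1 in BCAA-free medium, 12.2% by TGF-β1 in complete medium and 29.2% by the interaction, and 33.3% and 33.4% were called lower by the additions. In lungs, bleomycin lowered 10 of 12 in the water experiment, among them Slc7a11, the cystine transporter (-4.37), and Chac1, which degrades glutathione (-3.57), and 7 of 12 in the BT2 experiment. In the diet experiment it raised 3 and lowered 2. BT2 raised 4 of 12 and lowered 0. Of all genes bleomycin lowered 7.08% in the water and 13.3% in the BT2 experiment, it raised 48.7% and lowered 12.3% in the diet experiment, and BT2 raised 6.34%.

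Within the endoplasmic reticulum folding list, bleomycin raised 7 of 15 genes and lowered 0 in the water experiment, led by Sdf2l1 (1.66), and raised 4 and lowered 3 in the diet experiment, where 48.7% of all genes were called higher and 12.3% lower (14.8% higher in the water experiment). The BCAA-free diet lowered 4 of 12 hypoxia-inducible genes and raised 0, against 6.12% of all genes lower, led by Ankrd37 (-2.38), while P4ha1 and P4ha2, which hypoxia is known to induce, were at 0.27 and 0.02 there. These lists share members (Ero1a and Egln3 are each in 2 of them).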
